A study of Danio rerio with 4 samples.

Results

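Heat-shocked zebrafish embryos carrying the en-pou5f3 transgene were compared between the 3-somite stage (3-ss) and 90% epiboly, near the end of gastrulation. The comparison rests on 2 of the 4 arrays of the study, 1 for each stage, taken by genotype and stage with no use of a measured value. It covers 15502 probe sets of a zebrafish microarray out of the 15617 on it, the remainder being controls of the manufacturer. The array does not hold every gene, so a gene absent below may not have been on it. The transgene joins the repressor domain of Engrailed to Pou5f3, a class V POU transcription factor, behind a heat shock promoter that is not restricted to a tissue. The 4 groups were en-pou5f3 embryos at 3-ss, en-pou5f3 embryos at 90% epiboly, wild-type siblings at 3-ss and wild-type siblings at 90% epiboly, all of the RW strain, the transgenic embryos being hemizygous. Every group was heated to 37°C for 60 min from the named stage on and then kept for 30 min at normal temperature. RNA was taken only after both periods, so a stage name gives the start of heat shock and not the time of sampling. The paper places the end of epiboly between the named stages, a short time after 90% epiboly. The RNA of the 90% epiboly arrays may therefore date from after gastrulation. No array shows the stage without heat shock. The sample records give 25°C as the temperature at which the embryos of every group were raised. Each array came from 1 pool of genotyped whole embryos, so no difference below has a replicate check, no test was made, and fewer cells of a type cannot be told apart from less RNA per cell.

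As gastrulation closes, genes that induce mesoderm and endoderm or set the dorsal and ventral sides are normally switched off, while genes of muscle, neurons, neural crest, blood and the brain's subdivisions come on. In zebrafish Pou5f3 works with SoxB1 factors to open the zygotic genome and later takes part in forming the midbrain-hindbrain boundary. A fusion of Pou5f3 to the Engrailed domain represses the genes it occupies, so it competes with the endogenous activator. The question here was which genes still changed between the stages while this repressor was present.

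The 4 arrays had been scaled alike, with a mean without the lowest and highest 2% of about 500.1 on each. Between 11055 and 11539 probe sets per array reached 32.4, a floor set from those controls that match no zebrafish transcript, and lower signals were raised to it. Ratios are given as log2 of 3-ss over 90% epiboly, and a probe set is called higher or lower at 3-ss when it differs by 2-fold. A fold with 1 signal under the floor is a bound, written as at least N-fold. The SD of the log2 ratio between probe sets of the same gene was 0.355 in en-pou5f3 embryos (1001 genes) and 0.395 in wild-type embryos (1019 genes), which holds probe error but no variation between embryos. Poly-A RNAs that are added to the sample as controls had a median log2 ratio of 0.32 between the stages in en-pou5f3 arrays and 0.0079 in wild-type arrays (23 probe sets), while controls added at hybridization had 0.048 and -0.025 (18 probe sets). The part of the spike difference in the results was not tested.

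For pou5f3 the signals were 2138 at 3-ss and 8284 at 90% epiboly in en-pou5f3 embryos, against 1277 at 3-ss and 5473 at 90% epiboly in wild-type embryos. It was thus lower at 3-ss in both genotypes, with log2 ratios of -1.95 in en-pou5f3 and -2.10 in wild-type embryos, and higher in the transgenic embryos at both stages. The sources used here do not say which part of the transcript the probes cover, so transcript of the transgene and of the endogenous gene cannot be told apart.

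In en-pou5f3 embryos 921 of 12010 measured probe sets were at least 2-fold higher at 3-ss (7.67%) and 381 were at least 2-fold lower (3.17%). In wild-type embryos 945 of 11815 were higher (8.0%) and 469 lower (3.97%). Higher signals made up 70.7% of the en-pou5f3 calls, and 58.9% after quantile normalization, with 749 higher and 522 lower, so this share depends on the scaling. Differences of 4-fold or more were also more often higher than lower, with 175 probe sets higher and 29 lower in en-pou5f3 embryos, against 160 higher and 55 lower in wild-type embryos. Of the en-pou5f3 calls, 192 of the higher and 44 of the lower ones lay under the floor on 1 array and have only a bound. Counted once a gene by its brightest probe set, 566 of 7458 genes were higher in en-pou5f3 embryos (7.59%) and 240 lower (3.22%). Calls next to the threshold differ little from those next to them outside it. The phosphatase gene dusp7, with signals of 119 at 3-ss and 59.2 at 90% epiboly, was just inside, and rab22a, with 183 and 91.4, was just outside.

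Part of the stage change of wild-type siblings was also called in en-pou5f3 embryos. Both genotypes called 563 probe sets higher, which is 61.1% of the en-pou5f3 list and 59.6% of the wild-type list, and 188 lower, which is 49.3% and 40.1%. For the 10100 probe sets that reached the floor on each of the 4 arrays, the ratios of both genotypes correlated with a Pearson r of 0.74 and a Spearman rho of 0.68. These comparisons share no array, but they share the clutch, the heat shock and the probes. The probe sets called higher in wild-type embryos had a median log2 ratio of 1.15 in en-pou5f3 and 1.40 in wild-type embryos, and 93.8% of them were on the higher side in en-pou5f3. Those called lower in wild-type embryos had medians of -0.83 in en-pou5f3 and -1.25 in wild-type embryos, with 89.3% on the lower side in en-pou5f3. The genotype that makes such a choice has the larger median by that choice. Chosen the other way, the en-pou5f3 calls had medians of 1.38 in en-pou5f3 and 1.18 in wild-type embryos where higher, and of -1.23 in en-pou5f3 and -1.0 in wild-type embryos where lower.

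Probe sets at least 4-fold changed in wild-type embryos passed 2-fold in en-pou5f3 embryos more often than all wild-type calls did. They lie further from the threshold, so part of this follows from the choice. Of the 160 probe sets at least 4-fold higher in wild-type embryos, 145 were also 2-fold higher in en-pou5f3 embryos (90.6%), and of the 55 at least 4-fold lower 39 were also 2-fold lower (70.9%). For the lower calls the share differed with signal level. Where the mean signal over the 4 arrays was at least 200, 48.8% of the 256 wild-type lower calls were lower in en-pou5f3 embryos too, against 29.6% of the 213 dimmer ones. For the higher calls the shares were 63.8% of 426 and 56.1% of 519.

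**Figure D1:**
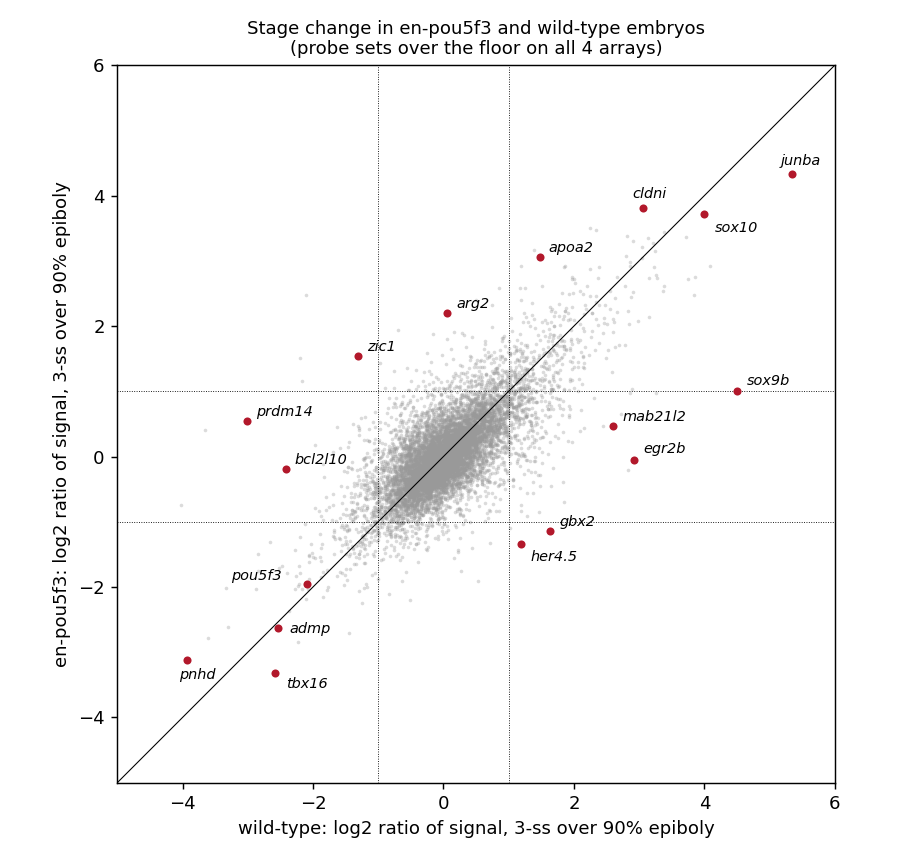
Each point is a probe set over the floor on all 4 arrays (n = 10100), with the log2 ratio of signal of 3-ss over 90% epiboly in en-pou5f3 embryos on the vertical axis and in wild-type embryos on the horizontal axis. Dotted lines mark 2-fold and the solid line equal change. Most points with a large change lie near the diagonal, with junba and sox10 at one end and pnhd, admp and tbx16 at the other, while sox9b, egr2b, gbx2 and her4.5 lie below it and zic1, arg2 and prdm14 above it. For tbx16 the more changed of its probe sets is marked.

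AP-1 genes, the early-response genes whose Jun and Fos proteins pair to bind DNA, were among the largest differences measured on both en-pou5f3 arrays, with junba first. The junba gene had signals of 2505 at 3-ss and 125 at 90% epiboly in en-pou5f3 embryos, against 2085 and 51.4 in wild-type embryos, log2 ratios of 4.33 and 5.34. Its paralogue junbb had 2124 at 3-ss and 229.8 at 90% epiboly in en-pou5f3 embryos, against 1555 and 189.6 in wild-type embryos. Both 3-ss arrays were far above both 90% epiboly arrays. For fosab the signals were 2514 at 3-ss and 282 at 90% epiboly in en-pou5f3 embryos, against 1531 and 162 in wild-type embryos. The stress-induced factor atf3 had log2 ratios of 3.38 in en-pou5f3 and 2.82 in wild-type embryos. Fosl2 had 2.74 in en-pou5f3 and 2.37 in wild-type embryos by its brightest probe set, with a 3-ss signal of 661 in en-pou5f3 and 238 in wild-type embryos.

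Of the p53 and stress response list, 13 of 35 measured genes were higher at 3-ss in en-pou5f3 embryos and 0 lower, against 15 and 0 in wild-type embryos. The medians were 0.67 in en-pou5f3 and 0.91 in wild-type embryos, beside medians over all measured features of 0.022 (genes) and 0.033 (probe sets) in en-pou5f3 and 0.018 (probe sets) in wild-type embryos, which also stand beside the other lists. Per gene the median difference of en-pou5f3 minus wild-type was -0.02. Shares called over all features stand beside every list too. They were 7.59% of genes higher and 3.22% lower in en-pou5f3 and 8.0% and 3.97% of probe sets in wild-type embryos. A gene entered a list only if measured in en-pou5f3 embryos, so wild-type counts leave out genes under the floor on both en-pou5f3 arrays. Besides the AP-1 genes the p53 and stress response list held socs3b, a feedback inhibitor of cytokine signalling, with log2 ratios of 2.72 in en-pou5f3 and 1.98 in wild-type embryos, and gadd45aa, a growth arrest gene, with 2.11 in en-pou5f3 and 1.83 in wild-type embryos. The death gene bbc3 had 1.25 in en-pou5f3 and 1.05 in wild-type embryos, and mdm2, the ligase that degrades p53, had 0.44 and 0.92. Sqstm1, an autophagy receptor gene of this list, passed 2-fold in wild-type embryos and not in en-pou5f3, with 1029 at 3-ss and 742 at 90% epiboly in en-pou5f3 embryos, against 1257 and 230.4 in wild-type embryos.

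The heat shock and chaperone list was nearly level between the stages. Of 38 measured genes 1 was higher in en-pou5f3 embryos and 0 lower, against 3 and 0 in wild-type embryos, with medians of 0.15 and 0.12. Its member hspa8b was bright on all 4 arrays, with 18565 at 3-ss and 12106 at 90% epiboly in en-pou5f3 embryos, against 14780 and 9994 in wild-type embryos. The gene past 2-fold in en-pou5f3 was calr3b, a calreticulin of the endoplasmic reticulum, at 1.15 in en-pou5f3 and 0.87 in wild-type embryos. Another chaperone of that compartment, pdia4, had 0.74 in en-pou5f3 and 1.79 in wild-type embryos, and the Hsp90 of the same compartment, hsp90b1, had -0.40 and 0.93. Outside the list the heat shock cognate hsc70 was among the 15 largest differences, with 849 at 3-ss and 75.2 at 90% epiboly in en-pou5f3 embryos, against 346 and 72.5 in wild-type embryos.

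Of 20 measured genes of the early muscle list 7 were higher in en-pou5f3 embryos, 0 lower and 13 within 2-fold, against 9 higher and 1 lower of 17 in wild-type embryos. Over all genes 7.59% were higher and 3.22% lower in en-pou5f3 embryos. The medians of 0.45 in en-pou5f3 and 1.12 in wild-type embryos are over unlike members, and over the 17 genes measured in both the median difference of en-pou5f3 minus wild-type was -0.02. Skeletal actin acta1a had 906 at 3-ss and 29.3, under the floor, at 90% epiboly in en-pou5f3 embryos, a difference of at least 27.9-fold, against 1333 and 75.1 in wild-type embryos. The thin filament genes tpma and tnnc2.2 had log2 ratios of 2.84, a bound, and 2.12 in en-pou5f3 embryos, against 2.07 and 2.71, a bound, in wild-type embryos. Tmod4, which caps thin filaments, had 512 at 3-ss and 51.5 at 90% epiboly in en-pou5f3 embryos, against 609 and 81.2 in wild-type embryos. The myogenic regulator myog had 72.7 at 3-ss and 13.3 at 90% epiboly in en-pou5f3 embryos, against 70.5 and 6.44 in wild-type embryos. Both 90% epiboly signals were under the floor, so it was at least 2.24-fold higher in en-pou5f3 and at least 2.17-fold in wild-type embryos. The earlier regulators were under 2-fold in en-pou5f3 embryos. For myf5 the log2 ratio was 0.18 in en-pou5f3 and -0.22 in wild-type embryos, and for myod1 -0.52 and -1.01.

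Of 28 measured extracellular matrix genes 12 were higher and 0 lower in en-pou5f3 embryos, against 11 and 0 in wild-type embryos, with medians of 0.72 and 0.88. Per gene, however, the median difference of en-pou5f3 minus wild-type was 0.18. Among them ccn2a, a matricellular growth factor, was at least 7.82-fold higher in en-pou5f3 embryos (254 at 3-ss and 23.4 at 90% epiboly) and 2.75-fold higher in wild-type embryos (122 and 44.2). The protease inhibitor timp2b had 594 at 3-ss and 119 at 90% epiboly in en-pou5f3 embryos, against 145 and 86.8 in wild-type embryos, so that its 3-ss signal stood apart in en-pou5f3. Cartilage and notochord collagen col2a1a had log2 ratios of 2.03 in en-pou5f3 and 2.84 in wild-type embryos.

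Hox genes mark positions along the trunk. Of 36 measured genes 14 were higher, 22 within 2-fold and 0 lower in en-pou5f3 embryos, against 17 and 0 in wild-type embryos, with medians of 0.88 and 0.95. The largest were hoxb6a, at least 6.2-fold higher in en-pou5f3 and 4.61-fold in wild-type embryos, and hoxd11a, at least 4.91-fold and 3.46-fold. The anterior gene hoxa2b, which patterns the hindbrain and pharyngeal arches, differed between the genotypes, with 131 at 3-ss and 66.9 at 90% epiboly in en-pou5f3 embryos, against 277 and 38.1 in wild-type embryos. Its log2 ratio of 0.97 in en-pou5f3 was just under 2-fold, against 2.86 in wild-type embryos.

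The list with the highest median was that of the yolk syncytial layer and yolk, the tissue that exports yolk lipid into the embryo, where 14 of 26 measured genes were higher and 1 lower in en-pou5f3 embryos, against 11 and 3 in wild-type embryos. Its medians were 1.06 in en-pou5f3 and 0.82 in wild-type embryos. Apolipoprotein genes led it. For apoa2 the signals were 11997 at 3-ss and 1447 at 90% epiboly in en-pou5f3 embryos, against 14809 and 5330 in wild-type embryos, and for apobb.1 they were 11767 and 2241 in en-pou5f3, against 12615 and 5514. The 3-ss signals of both genes were close between the genotypes and the 90% epiboly signals were lower in en-pou5f3 embryos, which gives the larger stage ratio there (3.05 against 1.47, and 2.39 against 1.19). The list's lower gene was mttp, which loads lipid onto apolipoprotein B, at -1.29 in en-pou5f3 and -1.5 in wild-type embryos. The fibrinogen gene fgg, expressed by the same layer and later by the liver, had 476 at 3-ss and 56.4 at 90% epiboly in en-pou5f3 embryos, against 506 and 72.6 in wild-type embryos.

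Neural crest and blood regulators were among the shared higher genes. The crest factor sox10 had 675 at 3-ss and 51.1 at 90% epiboly in en-pou5f3 embryos, against 874 and 54.7 in wild-type embryos, log2 ratios of 3.72 and 4.0. The epithelial transition factor snai2 had 1.68 in en-pou5f3 and 1.60 in wild-type embryos. Other members of the neural crest and plate border list went other ways, with 5 of 29 higher and 3 lower in en-pou5f3 embryos, against 7 and 6 of 28 in wild-type embryos, with medians of -0.02 and 0.04. Of the blood and vessel list 6 of 19 were higher and 2 lower in en-pou5f3 embryos, against 6 and 2 of 16 in wild-type embryos, with medians of 0.39 and 0.3. The haematopoietic regulators lmo2 and tal1 had 2.54 and, as a bound, 2.31 in en-pou5f3 embryos, against 2.55 and 2.69, also a bound, in wild-type embryos. The actin-bundling gene lcp1 was lower, at -2.03 in en-pou5f3 and -2.08 in wild-type embryos.

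Most epidermal genes, like most genes measured, stayed within 2-fold between the stages. Over all genes 7.59% were higher and 3.22% lower in en-pou5f3 embryos. Of 42 measured genes of the epidermis and periderm list 4 were higher and 3 lower in en-pou5f3 embryos, against 5 and 1 in wild-type embryos, with medians of 0.3 and 0.04. Per gene the median difference of en-pou5f3 minus wild-type was 0.09. Keratin krt4 had 25124 at 3-ss and 20818 at 90% epiboly in en-pou5f3 embryos, against 27052 and 22580 in wild-type embryos. Among the 4 higher genes was the tight junction gene cldni, second to junba among differences measured over the floor on both en-pou5f3 arrays, with 4159 at 3-ss and 298 at 90% epiboly in en-pou5f3 embryos, against 3809 and 459 in wild-type embryos. Further large ones were those of mafbb, a Maf family transcription factor gene, with 618 at 3-ss and 55.8 at 90% epiboly in en-pou5f3 embryos, against 772 and 153 in wild-type embryos, and of cyp1a, the enzyme induced through the aryl hydrocarbon receptor, with 432 and 39.6 in en-pou5f3, against 528 and 50.7.

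**Figure D2:**
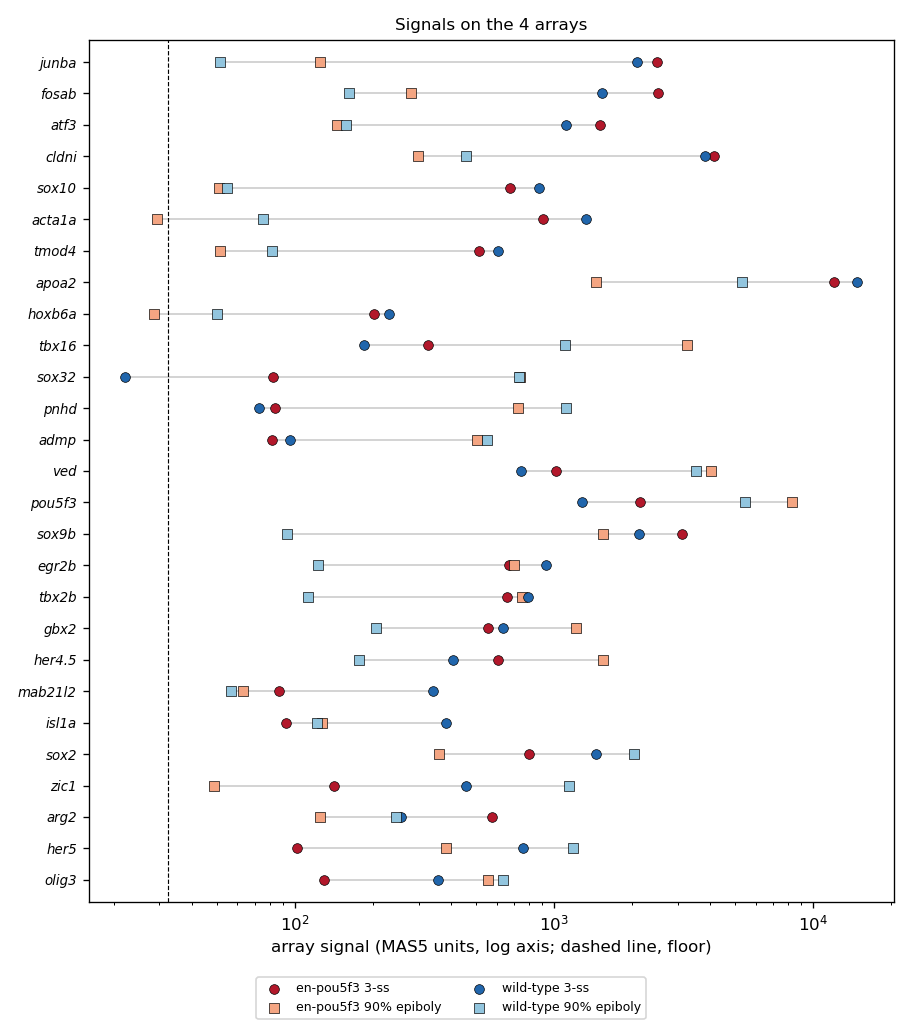
Signals of 27 genes on the 4 arrays on a log axis, circles for 3-ss and squares for 90% epiboly, red for en-pou5f3 and blue for wild-type, with the floor of 32.4 dashed. From junba to hoxb6a both 3-ss signals exceed both 90% epiboly signals, and from tbx16 to pou5f3 they lie below them, while for egr2b and tbx2b the wild-type 90% epiboly signal alone is low.

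Regulators of endoderm and mesoderm were among the genes with the largest lower ratios. The largest over the floor on both en-pou5f3 arrays was that of zgc:152968. It had 57.8 at 3-ss and 625.5 at 90% epiboly in en-pou5f3 embryos, against 29.0, under the floor, and 313 in wild-type embryos. The endoderm list had 0 of 11 measured genes higher and 6 lower in en-pou5f3 embryos, the same counts as in wild-type embryos, with medians of -1.04 in en-pou5f3 and -1.10 in wild-type embryos. Over all features 3.22% of genes were lower in en-pou5f3 and 3.97% of probe sets in wild-type embryos. The endoderm determinant sox32 had 82.5 at 3-ss and 737 at 90% epiboly in en-pou5f3 embryos, against 22.1, under the floor, and 735 in wild-type embryos. The 90% epiboly signals were alike, and the 3-ss signal stayed over the floor in en-pou5f3 embryos alone. Its downstream factor sox17 was at least 3.18-fold lower in en-pou5f3 and at least 3.38-fold lower in wild-type embryos. Some of the lower genes passed 2-fold in 1 genotype only, with the forkhead gene foxa1 at -1.04 in en-pou5f3 and -0.07 in wild-type embryos, and the chemokine receptor gene cxcr4a at -0.80 in en-pou5f3 and -1.97 in wild-type embryos. For foxa2 the log2 ratios were -1.84 in en-pou5f3 and -2.26 in wild-type embryos, and for foxa3 -1.22 and -0.66. The liver gene regulator hnf4a had -0.83 in en-pou5f3 and -1.35 in wild-type embryos.

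Tbx16, a T-box factor of paraxial mesoderm, had a disagreement between its probe sets. Its dimmer one had 325 at 3-ss and 3248 at 90% epiboly in en-pou5f3 embryos, against 184.5 and 1102 in wild-type embryos, log2 ratios of -3.32 and -2.58. The brighter one had 2299 at 3-ss and 4045 at 90% epiboly in en-pou5f3 embryos, against 1459 and 3012 in wild-type embryos, log2 ratios of -0.82 and -1.05. Both were lower at 3-ss in both genotypes and differ in size. Over all genes with several probe sets, the most changed one was 2-fold lower in en-pou5f3 embryos for 43 genes, of which 8 had all their probe sets 2-fold lower and 16 had no other past 1.5-fold. For genes with the most changed one higher these counts were 26 and 29 of 80. Among probe sets over the floor on both en-pou5f3 arrays, 1 gene had probe sets past 2-fold in opposite directions. With bounds let in, the histone methyltransferase gene nsd1a had such a pair, at 2.23 and, as a bound, -2.16 in en-pou5f3 embryos.

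The gastrula list of ventral, dorsal and Nodal genes had 3 of 36 measured genes higher and 12 lower in en-pou5f3 embryos, against 3 and 16 of 35 in wild-type embryos, with medians of -0.54 and -0.84. Its median difference of en-pou5f3 minus wild-type per gene was 0.06. The BMP family ligand admp had 81.7 at 3-ss and 506 at 90% epiboly in en-pou5f3 embryos, against 95.4 and 552 in wild-type embryos. The ventral homeobox repressor ved had 1015 at 3-ss and 4018 at 90% epiboly in en-pou5f3 embryos, against 749 and 3528 in wild-type embryos. Both were lower to a like degree in the genotypes. The secreted factor pnhd, outside the list, had 83.6 at 3-ss and 724 at 90% epiboly in en-pou5f3 embryos, against 72.5 and 1112 in wild-type embryos. Genes of the Nodal feedback loop differed between the genotypes in size. The Nodal antagonist lft1 had 90.6 at 3-ss and 256 at 90% epiboly in en-pou5f3 embryos, against 98.1 and 705 in wild-type embryos. Its paralogue lft2 had 25.2, under the floor, and 51.7 in en-pou5f3 embryos, against 37.8 and 386 in wild-type embryos. In both cases the 3-ss signals were close and the 90% epiboly signal was lower under the repressor. Against the list's direction, wnt11, a ligand of convergence movements, was higher at 3-ss, with 2.43 in en-pou5f3 and 2.63 in wild-type embryos.

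Of 21 measured segmental plate and segmentation clock genes 6 were lower, 1 higher and 14 within 2-fold in en-pou5f3 embryos, against 9 lower and 0 higher in wild-type embryos, with medians of -0.68 and -0.63. The clock gene her1 had 109 at 3-ss and 399 at 90% epiboly in en-pou5f3 embryos, against 135 and 564 in wild-type embryos. The T-box gene tbx6 had 642 at 3-ss and 1861 at 90% epiboly in en-pou5f3 embryos, against 609 and 943 in wild-type embryos, so that its log2 ratio was -1.54 in en-pou5f3 and -0.63 in wild-type embryos. Some members did not move, such as msgn1, a regulator of presomitic mesoderm, with -0.03 in en-pou5f3 and 0.14 in wild-type embryos.

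Maternal and early zygotic genes had 7 of 30 measured members lower and 2 higher in en-pou5f3 embryos, against 7 and 0 of 28 in wild-type embryos, with medians of -0.37 and -0.54. They included pou5f3 itself, the cyclin ccnb1, the egg coat gene zp3b and the germ cell helicase ddx4, with -1.14 in en-pou5f3 and -1.06 in wild-type embryos. Nanog, which opens the zygotic genome together with Pou5f3, had -0.24 in en-pou5f3 and -1.14 in wild-type embryos. In the cell cycle and DNA replication list 5 of 50 were lower and 1 higher in en-pou5f3 embryos, against 1 and 0 in wild-type embryos, with medians of -0.22 and -0.29. The 5 were the mitotic genes ccnb1, ccnb2, ccnb3 and cdc20 and the S-phase cyclin gene ccne1, and the higher one was the replication gene gins2, at 1.14 in en-pou5f3 and 0.95 in wild-type embryos. The mitotic cyclin gene ccnb1 had 1476 at 3-ss and 4262 at 90% epiboly in en-pou5f3 embryos, against 2107 and 3731 in wild-type embryos. The other members of the 5 had log2 ratios between -1.40 and -1.01 in en-pou5f3 embryos and between -1.21 and -0.63 in wild-type embryos, all below 0 in both genotypes. Other replication genes stayed near 0, with mcm5 at 0.14 in en-pou5f3 and 0.06 in wild-type embryos, and pcna at -0.14 and 0.10.

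Of 72 cytosolic ribosomal protein genes 0 passed 2-fold in either genotype, with medians of 0.29 in en-pou5f3 and 0.32 in wild-type embryos and a range of 0.06 to 0.59 in en-pou5f3. Of 88 measured respiratory chain genes 0 passed in en-pou5f3 and 1 was lower in wild-type embryos, with medians of 0.15 and 0.18. The 9 histone genes had 2 higher and 1 lower in both genotypes, with medians of 0.5 in en-pou5f3 and 0.13 in wild-type embryos. Per gene, however, the median difference of en-pou5f3 minus wild-type was -0.09. The lower one was h1m, the maternal linker histone, at -1.32 in en-pou5f3 and -1.14 in wild-type embryos.

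**Figure D3:**
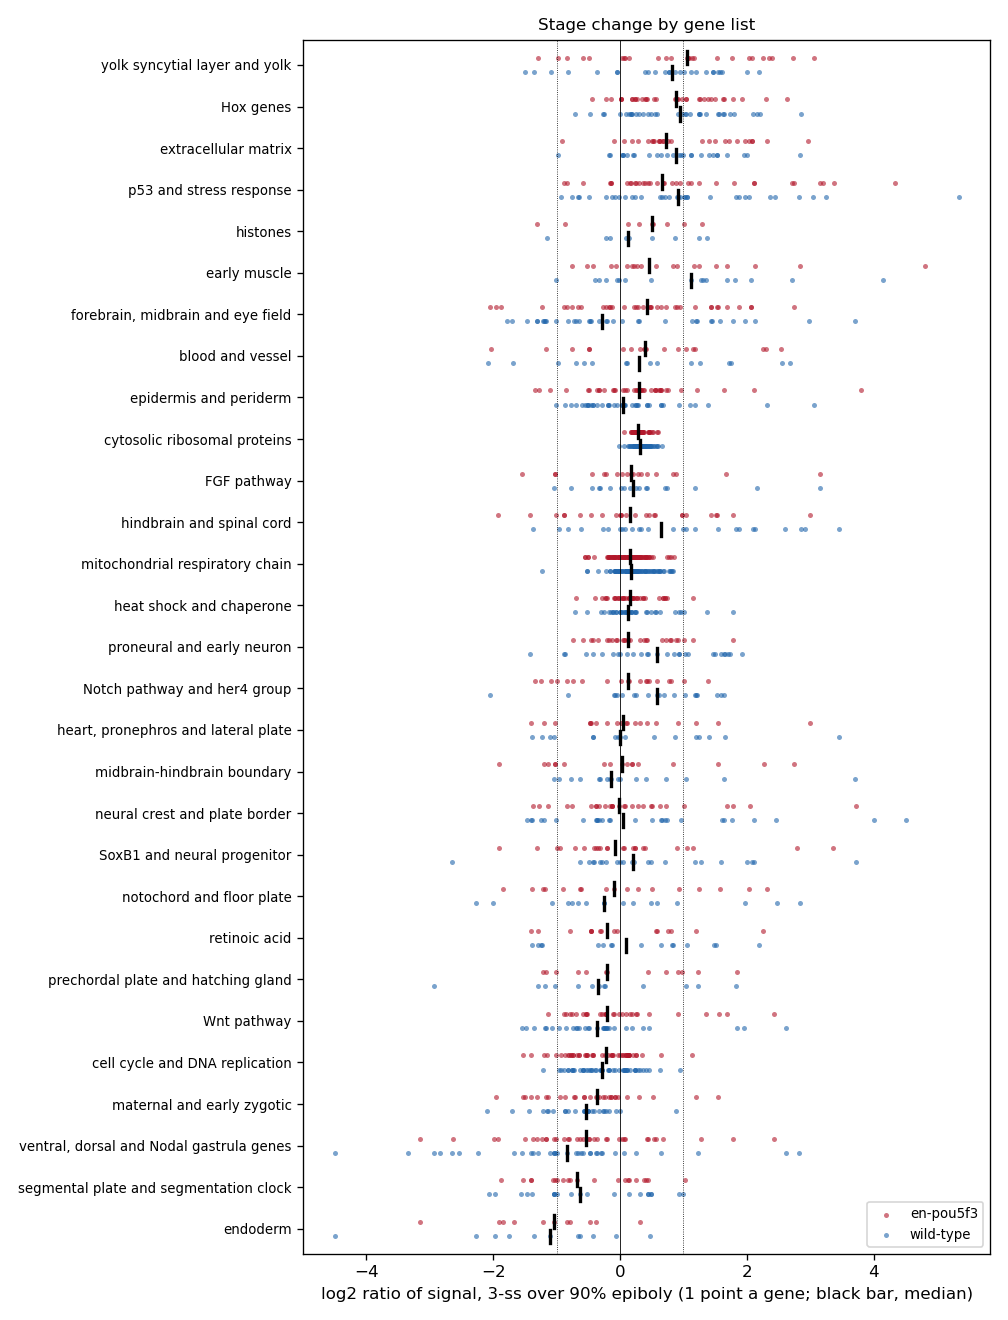
The log2 ratio of signal of 3-ss over 90% epiboly for each gene of 29 gene lists that was measured in en-pou5f3 embryos, red for en-pou5f3 and blue for wild-type, with the median as a black bar and dotted lines at 2-fold. Lists are ordered by the en-pou5f3 median, from 1.06 for the yolk list at the top to -1.04 for the endoderm list at the bottom, and the genotypes' medians of 1 list can be over unlike members where the number measured differs.

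Several lists of the nervous system held fewer higher genes in en-pou5f3 than in wild-type embryos, a difference that was not tested. These lists share some genes, such as dla, dlb and dld in the proneural and the Notch list, so they are not separate counts. Genes under the floor on both en-pou5f3 arrays are left out of the counts of both genotypes. The forebrain, midbrain and eye field list differed little, with 10 of 38 against 11 of 36, and the midbrain-hindbrain boundary list had 3 of 17 in each. Over all features, 7.59% of genes were higher in en-pou5f3 embryos and 8.0% of probe sets in wild-type embryos. En-pou5f3 counts of 3 of 29 and 2 of 20 are near that share. Of the proneural and early neuron list 3 of 29 were higher and 0 lower in en-pou5f3 embryos, against 10 and 1 in wild-type embryos, with medians of 0.13 and 0.58. Past 2-fold in both were cldn5a, a tight junction gene, with 1.16 in en-pou5f3 and 1.70 in wild-type embryos, neurod1, a neuronal differentiation factor, at least 3.43-fold higher in en-pou5f3 and at least 3.32-fold in wild-type embryos, and the zinc finger gene myt1a, with 1.01 in en-pou5f3 and 1.93 in wild-type embryos. Isl1a, which marks early motor and sensory neurons, had 92.7 at 3-ss and 127.5 at 90% epiboly in en-pou5f3 embryos, against 383 and 122 in wild-type embryos. Its 90% epiboly signals were alike and the wild-type 3-ss signal stood alone. The zinc finger gene insm1b had 269 at 3-ss and 257 at 90% epiboly in en-pou5f3 embryos, against 499.8 and 176 in wild-type embryos. The neuronal RNA-binding gene elavl3 differed by probe set. Its brightest one had 257 at 3-ss and 249 at 90% epiboly in en-pou5f3 embryos, against 597 and 197 in wild-type embryos, while another had 153 and 40.8 in en-pou5f3, against 102 and 91.3 in wild-type embryos.

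In the hindbrain and spinal cord list 6 of 26 were higher and 3 lower in en-pou5f3 embryos, against 11 and 1 in wild-type embryos, with medians of 0.16 and 0.64. Hindbrain regulators hnf1bb, hoxb2a and irx3a were higher in both, with hnf1bb at least 8.02-fold in en-pou5f3 and at least 11-fold in wild-type embryos. Egr2b, the krox20 gene of rhombomeres, was level in en-pou5f3 embryos, with 672 at 3-ss and 700.0 at 90% epiboly, against 929 and 123 in wild-type embryos. Its en-pou5f3 signals at both stages were near the wild-type 3-ss signal. Its paralogue egr2a was at least 2.85-fold higher at 3-ss in en-pou5f3 embryos and 3.68-fold higher in wild-type embryos. Lower in en-pou5f3 embryos alone by this threshold were dbx1a, a progenitor gene of the intermediate cord, at -1.42 in en-pou5f3 and -0.27 in wild-type embryos, and pbx4, a Hox cofactor, at -1.01 and -0.18.

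Of the SoxB1 and neural progenitor list 4 of 24 were higher and 2 lower in en-pou5f3 embryos, against 7 and 1 of 23 in wild-type embryos, with medians of -0.08 and 0.2. The POU factor pou3f2b had 568 at 3-ss and 55.2 at 90% epiboly in en-pou5f3 embryos, against 713 and 54.2 in wild-type embryos, and the glial filament gene gfap was at least 6.96-fold higher in en-pou5f3 and at least 4.34-fold in wild-type embryos. Sox2, a SoxB1 factor of neural progenitors, was past 2-fold higher at 3-ss in en-pou5f3 embryos only, with 803 at 3-ss and 360 at 90% epiboly, against 1447 and 2037 in wild-type embryos. Its 3-ss signal under the repressor did not reach either wild-type signal. Of the other SoxB1 genes, sox3 and sox19a were near level, with -0.32 and -0.42 in en-pou5f3 embryos and -0.22 and -0.31 in wild-type embryos. Sox1a had -0.21 in en-pou5f3 and 0.22 in wild-type embryos. Sox19b had -0.95 in en-pou5f3 embryos, just short of 2-fold lower, and 0.0025 in wild-type embryos.

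Of the Notch pathway and her4 group list 2 of 20 were higher and 3 lower in en-pou5f3 embryos, against 7 and 1 in wild-type embryos, with medians of 0.13 and 0.59. The 3 lower genes, her4.5, her2 and her15.2, encode Hes-type repressors, the family through which Notch signals act. Her4.5 had 606 at 3-ss and 1541 at 90% epiboly in en-pou5f3 embryos, against 406 and 177 in wild-type embryos, and her15.2 had 402 and 959 in en-pou5f3, against 622 and 519.6 in wild-type embryos. For her4.5 the 90% epiboly signal in en-pou5f3 embryos was the highest of the 4, and the manufacturer marks this probe set as sharing probes with other transcripts. The higher genes were the hairy-related hey1 (1.01 in en-pou5f3 and 1.64 in wild-type embryos) and the ligand gene jag1b (1.38 and 1.53). Delta ligands dla, dlb, dlc and dld lay between 0.13 and 0.81 in en-pou5f3 embryos, all under 2-fold.

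In the forebrain, midbrain and eye field list 10 of 38 were higher and 4 lower in en-pou5f3 embryos, against 11 and 10 of 36 in wild-type embryos, with medians of 0.42 and -0.28 and a median difference of en-pou5f3 minus wild-type of 0.26 per gene. Higher in both were nr2f2, an orphan nuclear receptor, with 2.07 in en-pou5f3 and 2.98 in wild-type embryos, and emx2, a dorsal forebrain homeobox gene, with 1.87 and 1.45. Lower in both were six7, with 42.3 at 3-ss and 174 at 90% epiboly in en-pou5f3 embryos, against 443 and 1523 in wild-type embryos, and otx2b, a head determinant, with 513 and 1991 in en-pou5f3, against 766 and 1737. The eye and forebrain gene pax6a was level in en-pou5f3 embryos, with 417 at 3-ss and 358 at 90% epiboly, against 845 and 215 in wild-type embryos.

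The midbrain-hindbrain boundary list had 3 of 17 higher and 5 lower in en-pou5f3 embryos, against 3 and 1 in wild-type embryos, with medians of 0.03 and -0.14. Pax2a, an early boundary gene, had 371 at 3-ss and 127 at 90% epiboly in en-pou5f3 embryos, against 702 and 714 in wild-type embryos. The Hes-type repressor her5 had 102 at 3-ss and 382 at 90% epiboly in en-pou5f3 embryos, against 762 and 1183 in wild-type embryos. So pax2a was higher and her5 lower at 3-ss in en-pou5f3 embryos, while both stayed under 2-fold in wild-type embryos. The boundary ligand fgf8a was lower in both genotypes, with -1.02 in en-pou5f3 and -1.05 in wild-type embryos, from signals of 108 at 3-ss and 219 at 90% epiboly in en-pou5f3 embryos, against 529 and 1092 in wild-type embryos. The engrailed gene en2b was at least 6.68-fold higher in en-pou5f3 and at least 13.1-fold higher in wild-type embryos. Wnt1 was near the floor on all 4 arrays, between 47.5 and 56.0.

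The shares of all genes called, 7.59% higher and 3.22% lower in en-pou5f3 embryos, stand beside the counts of the signalling lists. The FGF pathway list had 2 of 19 higher and 3 lower in en-pou5f3 embryos, against 3 and 1 of 18 in wild-type embryos, with medians of 0.17 and 0.21. Feedback phosphatase dusp5 was at least 8.90-fold higher in en-pou5f3 and 8.88-fold in wild-type embryos, whereas dusp2 was lower in en-pou5f3 alone, with 96.7 at 3-ss and 283 at 90% epiboly, against 117 and 104 in wild-type embryos. The Wnt pathway list had 4 of 31 higher and 1 lower in en-pou5f3 embryos, against 3 and 6 in wild-type embryos, with medians of -0.21 and -0.37. The Wnt target sp5l had 175 at 3-ss and 324 at 90% epiboly in en-pou5f3 embryos, against 1620 and 4735 in wild-type embryos, a log2 ratio of -0.89 against -1.55. The retinoic acid list had 2 of 16 higher and 2 lower in en-pou5f3 embryos, against 4 and 4 in wild-type embryos, with medians of -0.2 and 0.1. Its median difference of en-pou5f3 minus wild-type per gene was -0.03. The synthesising enzyme aldh1a2 had -1.41 in en-pou5f3 and -1.39 in wild-type embryos, whereas the degrading enzyme cyp26a1 was level in en-pou5f3 at -0.04, against -1.23 in wild-type embryos.

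Mesodermal midline and heart lists were mixed, beside 7.59% of all genes higher and 3.22% lower in en-pou5f3 embryos. The notochord and floor plate list had 4 of 17 higher and 4 lower in en-pou5f3 embryos, against 3 and 3 in wild-type embryos, with medians of -0.09 and -0.25. Cav1, the caveolin gene of membrane pits, had 2.32 in en-pou5f3 and 2.48 in wild-type embryos. The T-box gene tbxta was level in en-pou5f3 embryos at -0.21, against -1.07 in wild-type embryos. The prechordal plate and hatching gland list had 2 of 13 higher and 3 lower in en-pou5f3 embryos, against 3 and 4 in wild-type embryos, with medians of -0.2 and -0.34. The organizer gene gsc had 22.2, under the floor, at 3-ss and 37.7 at 90% epiboly in en-pou5f3 embryos, against 90.0 and 685 in wild-type embryos, so that its en-pou5f3 signals lay near the floor at both stages. The heart, pronephros and lateral plate list had 3 of 20 higher and 3 lower in en-pou5f3 embryos, against 5 and 4 of 17 in wild-type embryos, with medians of 0.05 and 0.0. The heart and limb factor hand2 was level in en-pou5f3 at 0.01, against 1.19 in wild-type embryos.

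A stage difference can be missing because the first level was already reached or because the second was not, so the level of each array was set beside it. Of 382 probe sets called higher in wild-type embryos only, 195 were higher in en-pou5f3 embryos by 1.5-fold to 2-fold and 128 by less, 50 were level or on the other side, and 9 were under the floor on both en-pou5f3 arrays. In 49 of the 382 the en-pou5f3 signal at 90% epiboly was already at least 2-fold above wild-type, in 59 the en-pou5f3 signal at 3-ss was at least 2-fold below wild-type, and in 274 neither held. Over all measured probe sets, 1.30% of 11594 were 2-fold higher in en-pou5f3 than in wild-type embryos at 90% epiboly and 2.25% lower, and at 3-ss 1.80% of 11970 were higher and 1.94% lower. The wild-type arrays that chose these probe sets also enter those ratios, so such counts lie above these shares in part by construction.

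Genes already high at 90% epiboly under the repressor included egr2b, the her4 genes and these others. Tbx2b, a T-box repressor of dorsal eye and placodes, had 657 at 3-ss and 755 at 90% epiboly in en-pou5f3 embryos, against 797 and 112 in wild-type embryos. Gbx2, which sets the hindbrain side of the boundary, had 554 at 3-ss and 1220 at 90% epiboly in en-pou5f3 embryos, against 637 and 205 in wild-type embryos. In both the wild-type 90% epiboly signal was the low one. The retinoic acid hydroxylase cyp26b1, by the more changed of its probe sets, had 175 at 3-ss and 283 at 90% epiboly in en-pou5f3 embryos, against 211 and 58.8 in wild-type embryos. Sox9b, a SoxE factor of neural crest, had the most negative difference between the genotypes, -3.50, with 3109 at 3-ss and 1547 at 90% epiboly in en-pou5f3 embryos, against 2119 and 93.2 in wild-type embryos. It remained just past 2-fold in en-pou5f3 embryos, from a 90% epiboly level far above that of wild-type.

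Genes short of the wild-type level at 3-ss included isl1a and the following ones. Mab21l2, an eye and midbrain gene, had 86.8 at 3-ss and 62.9 at 90% epiboly in en-pou5f3 embryos, against 343 and 56.6 in wild-type embryos. The gene nradd, a neurotrophin receptor relative, had 289 at 3-ss and 291 at 90% epiboly in en-pou5f3 embryos, against 1020 and 286 in wild-type embryos. Sox21a, a SoxB2 factor, had 163 at 3-ss and 240.0 at 90% epiboly in en-pou5f3 embryos, against 455 and 187 in wild-type embryos. For these genes the 90% epiboly signals were near each other, and the 3-ss signal was high in wild-type embryos alone.

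Of 281 probe sets called lower in wild-type embryos only, 112 were lower in en-pou5f3 embryos by 1.5-fold to 2-fold and 119 by less, 41 were level or on the other side, and 9 were under the floor on both en-pou5f3 arrays. Here 64 were already at least 2-fold below wild-type at 90% epiboly, 27 were at least 2-fold above it at 3-ss, 1 was both, and 189 were neither. Over all measured probe sets the shares were 2.25% below at 90% epiboly and 1.80% above at 3-ss. The wild-type arrays that chose these probe sets enter those ratios, so these counts also lie above the shares in part by construction. Prdm14, a chromatin regulator of early cells, had 56.4 at 3-ss and 38.8 at 90% epiboly in en-pou5f3 embryos, against 39.6 and 319 in wild-type embryos. The apoptosis inhibitor bcl2l10 had 456 at 3-ss and 522 at 90% epiboly in en-pou5f3 embryos, against 490.1 and 2616 in wild-type embryos. Foxb1a, a forkhead gene of the neural plate, had 58.7 at 3-ss and 42.4 at 90% epiboly in en-pou5f3 embryos, against 532 and 1312 in wild-type embryos. In these 3 the wild-type 90% epiboly signal was the highest, and the Nodal co-receptor tdgf1 had the same order, with 200.3 at 3-ss and 147 at 90% epiboly in en-pou5f3 embryos, against 519 and 1272 in wild-type embryos. The signalosome gene cops4 differed by its 3-ss signal instead, with 374 at 3-ss and 627 at 90% epiboly in en-pou5f3 embryos, against 52.6 and 853 in wild-type embryos. The manufacturer marks this cops4 probe set, like that of her4.5, as sharing probes with other transcripts.

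**Figure D4:**
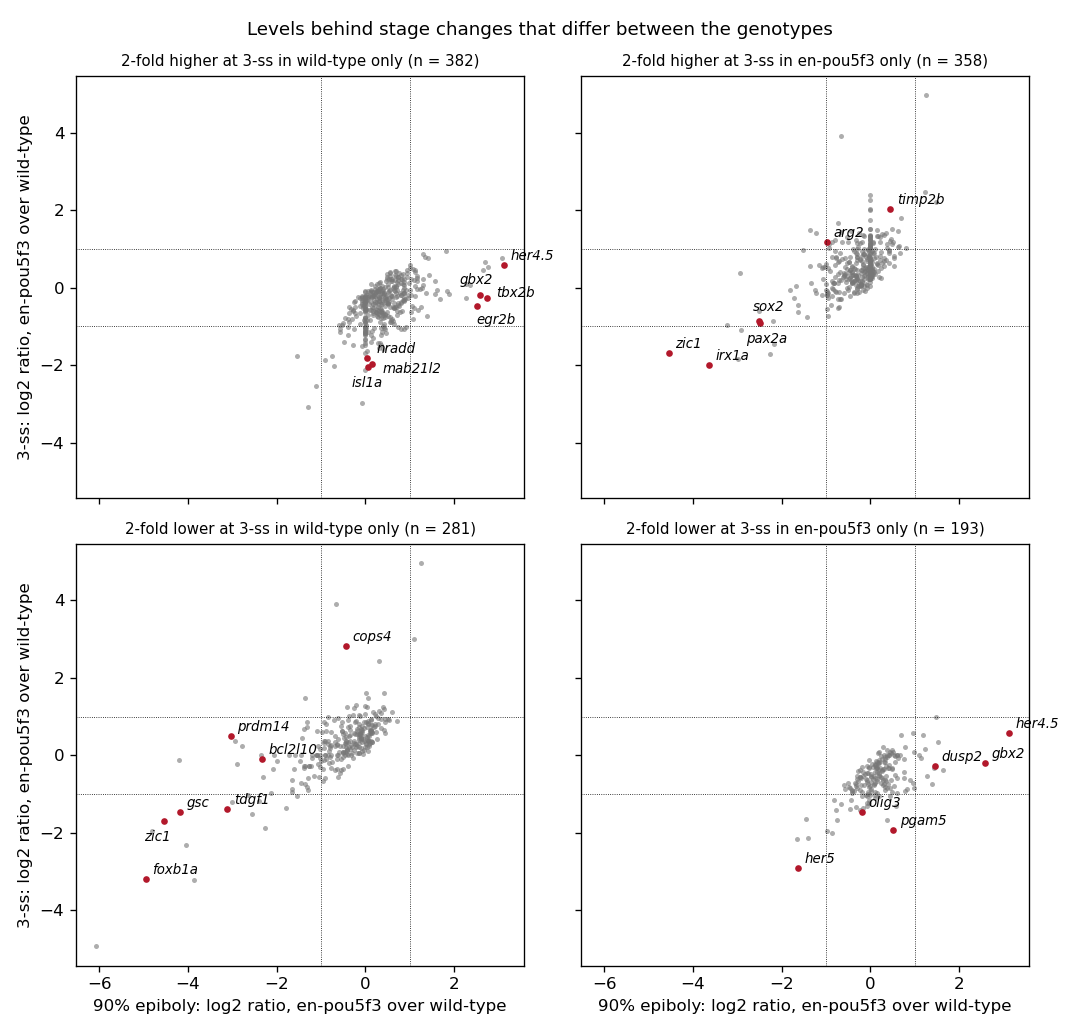
For probe sets 2-fold higher (top) or lower (bottom) at 3-ss in 1 genotype only, en-pou5f3 signal over wild-type signal as log2, at 90% epiboly (horizontal) and at 3-ss (vertical), with wild-type only calls at the left and en-pou5f3 only calls at the right and dotted lines at 2-fold. Most points lie inside the dotted lines, tbx2b, gbx2, egr2b and her4.5 lie to the right at 90% epiboly, and mab21l2, isl1a and nradd lie below at 3-ss.

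Other stage differences were called in en-pou5f3 embryos only. Of 358 probe sets called higher in en-pou5f3 only, 31 were at least 2-fold below wild-type at 90% epiboly, 73 were at least 2-fold above it at 3-ss, 2 were both and 252 neither. Over all measured probe sets 2.25% were 2-fold below wild-type at 90% epiboly and 1.80% above it at 3-ss. The en-pou5f3 arrays that chose these probe sets enter those ratios, so such counts lie above these shares in part by construction. Of the 31, sox2, pax2a and zic1 were described here for their signals, and irx1a, an Iroquois gene of the neural plate, had 88.0 at 3-ss and 14.5, under the floor, at 90% epiboly in en-pou5f3 embryos, against 351 and 405 in wild-type embryos. Of the 73, the arginase gene arg2 had 575 at 3-ss and 125 at 90% epiboly in en-pou5f3 embryos, against 256 and 246 in wild-type embryos. The lysosomal membrane gene laptm4b was higher in both genotypes but more so in en-pou5f3, with 1324 at 3-ss and 147 at 90% epiboly in en-pou5f3 embryos, against 304 and 116 in wild-type embryos. Of the 31, the neuronal kinase gene cdk5 was at least 9.08-fold higher in en-pou5f3 embryos (294.5 and 27.9) and 1.61-fold higher in wild-type embryos (149.8 and 93.2).

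Of 193 probe sets called lower in en-pou5f3 only, 13 were at least 2-fold above wild-type at 90% epiboly, 32 were at least 2-fold below it at 3-ss and 148 were neither. Over all measured probe sets the shares were 1.30% above at 90% epiboly and 1.94% below at 3-ss. These counts too lie above the shares in part by construction. Olig3, a bHLH factor of dorsal progenitors, had 129 at 3-ss and 557 at 90% epiboly in en-pou5f3 embryos, against 357 and 636 in wild-type embryos. The insulin gene insb had 66.9 at 3-ss and 309 at 90% epiboly in en-pou5f3 embryos, against 126 and 179 in wild-type embryos. The mitochondrial phosphatase pgam5 had 43.4 at 3-ss and 163 at 90% epiboly in en-pou5f3 embryos, against 165 and 115 in wild-type embryos. In all 3 the en-pou5f3 3-ss signal was the lowest of the 4.

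The call was in opposite directions in 8 probe sets, 5 of them higher in en-pou5f3 and lower in wild-type embryos and 3 the other way. The 3 were gbx2, her4.5 and her2, the last with 414 at 3-ss and 883 at 90% epiboly in en-pou5f3 embryos, against 691 and 339 in wild-type embryos. Of the 5, zic1, a zinc finger factor of the neural plate, had 142 at 3-ss and 48.9 at 90% epiboly in en-pou5f3 embryos, against 459 and 1143 in wild-type embryos. The uncharacterised transcripts wu:fe14d06 and wu:fc22g01 had larger differences. For wu:fe14d06 the signals were 1967 at 3-ss and 354 at 90% epiboly in en-pou5f3 embryos, against 131 and 564 in wild-type embryos. For wu:fc22g01 they were 1447 and 508 in en-pou5f3 embryos, against 46.3 and 213 in wild-type embryos. The 2 remaining ones were LOC100330524 and a dim probe set of copg2, a coat protein gene whose 2 brighter probe sets had log2 ratios of 0.54 and -0.25 in en-pou5f3 and 0.72 and -0.27 in wild-type embryos. With no floor there were 440 such probe sets, and at 3-fold there was 1.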

How the data were processed

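RNA of pooled heat-shocked embryos was hybridised to Affymetrix Zebrafish Genome arrays, 1 pool and 1 array for each of 4 groups. The authors summarised the scans to 1 intensity per probe set with MAS5 (version not stated), scaled each array and deposited the linear values. The methods mention more arrays than the 4 analysed here, and supplementary tables head the signal columns by heat shock, and the sample labels, which name genotypes, were followed.

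From these signals everything was computed with Python 3.11.15, numpy 2.4.6, pandas 2.3.3 and scipy 1.17.1, with matplotlib 3.10.9 for the plots. All 115 manufacturer controls were removed. The floor of 32.4 is the 95th percentile over 20 controls that match no zebrafish transcript (80 values, median 6.45). Lower signals were raised to it, and a probe set was measured if at least 1 of its 2 arrays reached it. The platform annotation gives 1 symbol for 10802 probe sets, several for 135 and none for 4680, and 10718 matched the current gene table by gene ID. The unlisted probe sets with opposite calls (wu:fc22g01, wu:fe14d06 and LOC100330524) take their names from the supplementary tables.

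No test was made, since each group has 1 array. The members and the 29 gene lists were chosen with earlier results of these data known. Lists follow the brightest probe set of each gene among those measured in en-pou5f3 embryos, in both genotypes. Genes under the floor on both en-pou5f3 arrays are thus left out of the wild-type list values too. Named genes were drawn from the 15 largest ratios and 8 largest bounds in each direction and the 10 largest genotype differences in each direction. List members by size with textbook members, opposite calls and pou5f3 were added. Not every gene of these rankings is printed, and known regulators were favoured. Genes of the stage-specific groups and the split of mean signal at 200 were chosen after values were seen. The calling steps were tested on simulated data. The alternatives were no floor, the floor at the control median, the floor added to signals, median centring, quantile normalization, probe sets over the floor on every array, shared-probe sets left out, controls kept, thresholds of 1.5-fold and 3-fold, and other probe set choices for lists.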

Additional observations from a re-analysis of the deposited data

Results flagged for a closer look

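The stage change had opposite signs past 2-fold in the genotypes for 8 probe sets, with 1 array on each side, so the difference was not tested. As log2 ratios of 3-ss over 90% epiboly, copg2 (its dimmest probe set) had 1.58 in en-pou5f3 and -1.27 in wild-type embryos. Her2 had -1.09 in en-pou5f3 and 1.03 in wild-type embryos, gbx2 had -1.14 and 1.64, and her4.5 had -1.35 and 1.2. Zic1 had 1.54 in en-pou5f3 and -1.32 in wild-type embryos, wu:fe14d06 had 2.47 and -2.11, wu:fc22g01 had 1.51 and -2.20, and LOC100330524 had 1.16 and -2.17.

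Outside the main measurement, 1 control probe set of the manufacturer, whose target is not given in the sources used here, had a signal of 14534 at 3-ss and 5531 at 90% epiboly in en-pou5f3 embryos, against 1670 at 3-ss and 110 at 90% epiboly in wild-type embryos. Its log2 ratio between the stages was 1.39 in en-pou5f3 embryos. The control probe sets were left out of all counts.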

How the results depend on the processing

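Median centring, quantile normalization, the floor added, leaving out shared-probe sets, keeping controls, and probe sets over the floor on every array kept all counts within 1.5 times, and all 29 list medians moved by less than 0.355 under each of the 8 alternatives run for them. Of these, 5 medians near 0 changed sign: prechordal plate (-0.20) was 0.12 with no floor, the lower floor and probe sets over the floor on every array, notochord (-0.09) was 0.11 with no floor, midbrain-hindbrain boundary (0.03) was -0.11 after quantile normalization and -0.15 over the floor on every array, neural crest (-0.02) was 0.01 to 0.07 under 4 alternatives, and SoxB1 (-0.08) was 0.05 by other probe set choices. Of 213 alternative values of named genes 181 moved by less than that and 32 moved further, all 32 with the floor added, and 0 changed direction. Of the 921 higher and 381 lower calls in en-pou5f3, 746 and 377 were also made after quantile normalization. The floor and the threshold decided the counts. For no floor, the lower floor, 1.5-fold and 3-fold in that order, en-pou5f3 had 2224, 1916, 2067 and 322 probe sets higher and 1258, 978, 1316 and 73 lower, wild-type had 2053, 1759, 2069 and 366 higher and 1541, 1224, 1428 and 101 lower, both had 994, 859, 1274 and 209 higher and 445, 333, 665 and 39 lower, and 440, 218, 77 and 1 had opposite directions. The Pearson correlation of the genotypes was 0.34 with no floor and 0.60 with the lower floor. No paired analysis was possible because each group holds 1 array. Signals near the floor and the single pools limit every value. For a single gene, a log2 difference below about 0.355 lies within the spread between probe sets of a gene. Some such differences, and list medians of that size, are printed above as values only.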
